A study of Mus musculus with 12 samples.

Results

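Atf3, Jun, Sox11, Klf4, Klf6, Klf7, Klf9, Myc, Cebpd and Creb1 are transcription factors that have been linked to the ability of injured sensory neurons to regrow an axon. They were taken by gene name from the table of read counts, 10 of the 44345 gene names in it, and all 10 were among the 16238 genes that passed the filter on low counts and were tested. RNA was sequenced from whole sciatic DRG (dorsal root ganglia, which hold the cell bodies of the sensory neurons whose fibres run in the sciatic nerve) of C57BL/6 mice that were 5 to 8 weeks old. Mice lived for 10 days in standard housing (SH) or in an enriched environment (EE, larger cages with objects that promote activity and exploration). They then underwent a complete sciatic nerve axotomy (SNA) or a Sham operation that exposed the nerve without cutting it, and DRG were collected 24 h after surgery. The design had 4 groups of 3 samples, with SH Sham and EE Sham as Sham-operated and SH SNA and EE + SNA as injured groups. Every sample was a pool of the ganglia of 2 mice. The mice of all groups carried no transgene and no deletion that the labels name, and the labels do not give their sex.

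A cut axon sends signals back to the nucleus, where transcription factors change the set of genes that the neuron transcribes. Atf3 and Jun encode basic leucine zipper (bZIP) proteins that bind DNA as dimers, also with each other, and are widely used as markers of the injured state in DRG neurons. Creb1 and Cebpd encode further bZIP proteins, which bind cAMP response elements and C/EBP sites. Sox11 encodes a high mobility group protein of immature neurons, Myc a basic helix-loop-helix protein that drives growth metabolism, and the Klf genes encode zinc finger proteins that bind GC-rich boxes. In cultured neurons, KLF6 and KLF7 are known to favour axon growth, and KLF4 and KLF9 to hold it back. Much of the activity of JUN, CREB1 and MYC is set by phosphorylation or protein stability, which counts of mRNA do not show.

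The promoters of Jun, Klf6 and Sox11, which rose after SNA, are shown first. They were picked because each holds a sequence of the kind that bZIP dimers of the ATF and JUN families bind. Promoters picked in this way cannot show a link between sequence and response, and no such link was tested. RefSeq promoters on GRCm38.p6, each 250 bases before to 50 bases after the start of transcription, were matched for 8 of the 10 genes (Atf3, Jun, Sox11, Klf4, Klf6, Klf7, Klf9 and Creb1, and not Myc or Cebpd). The letters TGACNTCA, in which N is any base, were searched on both strands. They include the full cAMP response element TGACGTCA as well as the variant TGACATCA of the jun promoter. Capitals mark the matches to TGACNTCA below, and each sequence is written in the direction of transcription. The promoter of Atf3, the gene with the largest change of the 10, is printed beside them. It holds no match to TGACNTCA, but it holds ttacgtca, which has a T in place of the first G of TGACGTCA. Such near matches are not particular to genes that rose. The promoter of Klf9 holds tgacgtga, with a G in place of the last C, and that of Klf4 holds tggcgtca, with a G in place of the first A. Neither Klf9 nor Klf4 was called against SH Sham. Near matches were not counted over all promoters. This promoter lies within the span of the gene in GENCODE, so it is not the promoter of the outermost start annotated there.
Jun, chr4:95052173-95052472, minus strand: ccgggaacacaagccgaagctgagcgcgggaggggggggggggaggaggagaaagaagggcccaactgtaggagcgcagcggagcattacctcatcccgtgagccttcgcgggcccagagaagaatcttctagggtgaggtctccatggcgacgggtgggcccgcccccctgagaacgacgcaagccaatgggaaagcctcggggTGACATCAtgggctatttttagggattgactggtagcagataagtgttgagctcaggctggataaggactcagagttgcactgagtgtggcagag
Klf6, chr13:5861239-5861538, plus strand: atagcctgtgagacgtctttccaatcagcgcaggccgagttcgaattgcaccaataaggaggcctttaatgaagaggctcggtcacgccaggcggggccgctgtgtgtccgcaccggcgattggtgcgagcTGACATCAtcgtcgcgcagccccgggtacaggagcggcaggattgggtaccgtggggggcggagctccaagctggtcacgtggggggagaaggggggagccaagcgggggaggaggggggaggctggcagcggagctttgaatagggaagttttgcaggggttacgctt
Sox11, chr12:27342669-27342968, minus strand: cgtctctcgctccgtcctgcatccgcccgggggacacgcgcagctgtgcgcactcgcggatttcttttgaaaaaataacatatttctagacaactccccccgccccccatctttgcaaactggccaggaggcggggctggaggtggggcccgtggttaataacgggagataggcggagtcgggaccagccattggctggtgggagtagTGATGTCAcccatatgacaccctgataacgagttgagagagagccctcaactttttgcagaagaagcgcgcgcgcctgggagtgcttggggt
Atf3, chr1:191183284-191183583, minus strand: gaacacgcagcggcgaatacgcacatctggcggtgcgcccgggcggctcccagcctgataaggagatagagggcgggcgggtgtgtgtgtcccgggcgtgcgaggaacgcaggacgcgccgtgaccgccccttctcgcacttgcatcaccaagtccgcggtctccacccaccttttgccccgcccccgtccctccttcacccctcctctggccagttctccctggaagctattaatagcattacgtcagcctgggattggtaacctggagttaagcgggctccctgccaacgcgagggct

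The match began at −45 from the start of transcription in Jun and at −119 in Klf6, where the letters were TGACATCA. In Sox11 the match lay on the opposite strand at −42 and read TGATGTCA along the gene. Thus 3 of 8 promoters held TGACNTCA, which is present in 8.83% of all 32851 promoters of the same length. The letters were chosen to include the variant of the jun promoter, so the match in Jun was fixed in advance. The promoters of Klf7 and Creb1, which also rose after SNA, held no match. The full element TGACGTCA was in 0 of the 8 promoters and in 1.79% of all promoters. TGANTCA, the AP-1 site that JUN and FOS dimers bind, was in the promoter of Klf9 alone (7.81% of all promoters). The C/EBP site TTGCNNAA was in that of Sox11 (10.8%), and CACGTG, the E-box that MYC binds, was in those of Klf4 and Klf6 (7.15%). The GC box GGGCGG was in 7 of 8 promoters (35.7% of all), CCACCC, to which KLF proteins bind, in 4 (31.5%), CCAAT in 5 (37.4%), the STAT site TTCNNNGAA in 1, that of Klf9 (8.3%), and TATAAA in 0 (13.6%). The GC content of the 8 promoters was 58.3% to 74.3%, and the median of all promoters was 52.7%. A match of letters is a description of the sequence and does not show that a protein binds there.

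Between 11343579 and 22871460 reads per sample fell on genes, the highest total being that of EE + SNA replicate 2. Between 56.3% and 56.8% of the reads in the totals of the counting program were not assigned to a gene. The 12 markers of sensory neurons (among them Tubb3, Prph, Nefh, Isl1 and Avil) were all detected in all groups, and their sum lay between 17605 and 21571 CPM (counts-per-million units, reads divided by the TMM-scaled library size), so the defining markers of the labelled tissue were present. Counts differed between replicates by more than counting error. Because the RNA came from whole ganglia, fewer cells of one type and less RNA per cell cannot be told apart. According to the study's text the EE Sham libraries belong to a dataset made before, but the labels place them with the others and name no batch. If they were sequenced apart, a batch and the effect of EE in EE Sham cannot be told apart. The same limit holds for EE + SNA against EE Sham, the interaction and both averages, which use these libraries too. P-values measure the spread between these pools of mice.

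All 10 factors were present in the ganglia of Sham-operated mice. No group was left without an operation, so a level at rest and an effect of the Sham operation cannot be told apart. Levels of different genes were compared as FPKM, reads scaled to gene length and library size, which the authors computed from the same counts. In SH Sham the mean FPKM fell in the order Atf3 (60.2), Klf7 (52.5), Jun (42.5), Klf9 (33.9), Klf6 (23.9), Cebpd (14.3), Creb1 (5.91), Myc (4.59), Klf4 (2.53) and Sox11 (2.5). The ranges of neighbours in this order did not overlap, except those of Klf4 and Sox11. Those of Atf3 and Klf7 nearly met, with the lowest sample of Atf3 at 55.1 and the highest of Klf7 at 54.4. EE Sham had the same order, with Atf3 at 73.5 and Klf7 at 56.1 at the top, and the same single overlap. After SNA, Atf3 stood apart from the rest, at 258 in SH SNA and 240 in EE + SNA. Jun (67.6 and 66.9) was next, with ranges that overlapped those of Klf7 (64 and 61.4). Klf6 moved above Klf9, at 44.6 against 36.9 in SH SNA and 45.9 against 36 in EE + SNA, and in EE + SNA the ranges of the pair overlapped. Sox11 reached 6.75 and 6.05, above Klf4 (2.84 and 3.19) and overlapping Myc in SH SNA and Creb1 in EE + SNA. Dividing by length used gene models that can be shorter than those in GENCODE. The length behind the FPKM was 2024 bases for Sox11 and 1186 for Cebpd, against 8311 and 3746 exon bases in GENCODE, so the place of these genes in the order depends on the gene model.

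**Figure D1:**
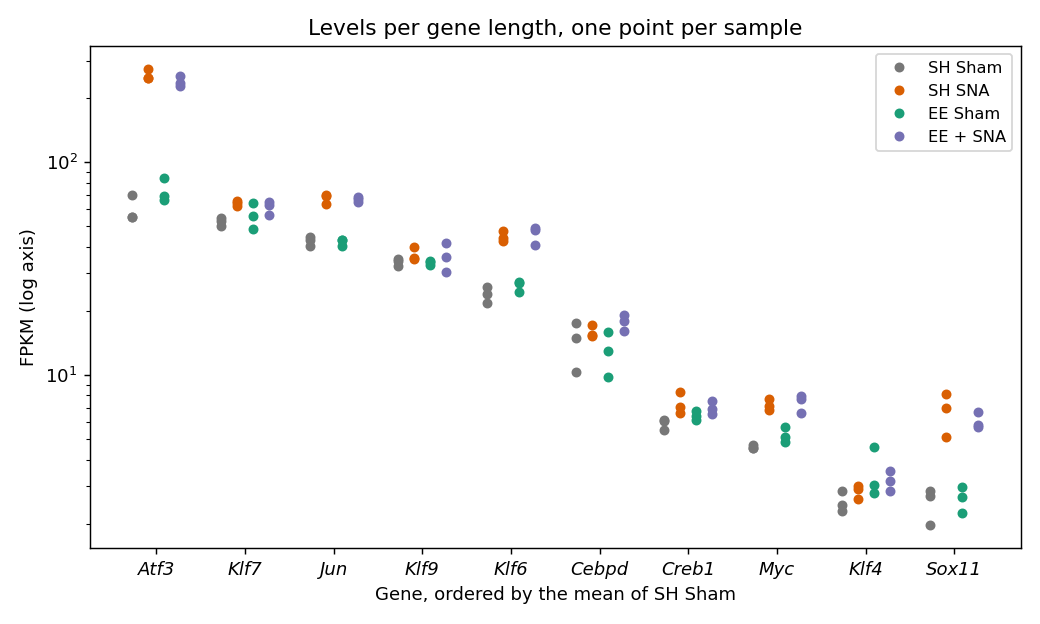
Level of each factor per gene length, as FPKM on a log axis, with 1 point per sample and 4 colours for the 4 groups; genes are ordered by the mean of SH Sham. Atf3 rises from 60.2 in SH Sham to 258 in SH SNA, well above all others, whereas the group means of Klf9 lie between 33.6 and 36.9.

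To ask which of the factors respond to nerve injury, each injured group was set against SH Sham with edgeR's quasi-likelihood F test on the counts of the 6 samples, with P-values adjusted over all 16238 genes (Benjamini-Hochberg) and called at an adjusted value of 0.05. Atf3, Jun, Sox11, Klf6, Klf7, Myc and Creb1 were higher in both comparisons, and none was lower. That is 7 of 10 in SH SNA, where 6.06% of all genes tested were called higher, and 7 of 10 in EE + SNA, where 6.87% were. The log2 fold changes of the 10 genes were all above 0, with a median of 0.49 in SH SNA and 0.51 in EE + SNA, and the median of all genes tested was 0.0047 in both. At the unadjusted P-value of 0.05 that the study used, 8 of 10 were called in SH SNA (25.2% of all genes, in either direction) and 9 of 10 in EE + SNA (27.2%). In each comparison every injured sample was above every SH Sham sample for 8 of 10 genes, which held for 14.3% of all genes in SH SNA and 16.1% in EE + SNA. Both comparisons use the same SH Sham samples, so they are not independent of each other.

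Atf3, on the minus strand of chromosome 1 (GRCm38, 191170296 to 191218039, 5 exon blocks), had by far the largest change of the 10 in both comparisons. Levels from here on are in CPM. Atf3 had 110, 138 and 110 CPM in SH Sham and 549, 502 and 499 in SH SNA. In EE Sham it had 136, 136 and 168 CPM, and in EE + SNA 480, 454 and 516. Every injured sample was thus above every Sham sample by a wide margin, whichever the housing. Against SH Sham, Atf3 was 4.34-fold higher in SH SNA (95% interval 3.8 to 4.96, adjusted P = 7.38e-08) and 4.05-fold higher in EE + SNA (3.53 to 4.63, adjusted P = 2.13e-07).

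Jun, the AP-1 subunit that dimerizes with ATF3 or FOS proteins, is a single-exon gene on the minus strand of chromosome 4 (95049034 to 95052222). It had 129, 140 and 137 CPM in SH Sham and 205, 226 and 222 in SH SNA, and it had 141, 127 and 137 CPM in EE Sham and 223, 206 and 219 in EE + SNA. The ranges of the Sham groups overlapped, as did those of the SNA groups, while no injured sample overlapped a Sham sample. The log2 fold change was 0.69 (standard error 0.058, adjusted P = 1.53e-05) in SH SNA and 0.67 (0.061, adjusted P = 3.43e-05) in EE + SNA. Of the exon bases of Jun, 232 are shared with Junos on the other strand, and the strand setting of the counting is not given in the sources used here.

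Creb1, whose protein activates transcription when phosphorylated downstream of cAMP, lies on the plus strand of chromosome 1 (64532645 to 64604548, 13 exon blocks). Its CPM were 52.1, 50.8 and 46.3 in SH Sham, 70.4, 60.1 and 55.7 in SH SNA, 58.5, 51.1 and 54.1 in EE Sham and 64.4, 58 and 56.2 in EE + SNA. The injured samples were all above SH Sham, but they overlapped EE Sham. The rise was small, a log2 fold change of 0.32 (standard error 0.086, adjusted P = 0.0313) in SH SNA and 0.25 (0.074, adjusted P = 0.0406) in EE + SNA. The call, more than the size of the change, depended on single samples. Without SH SNA replicate 1 the log2 fold change was 0.22 (adjusted P = 0.132), and it was 0.35, 0.34 and 0.27 (adjusted P = 0.056, 0.074 and 0.115) without SH Sham replicates 1, 2 and 3. In EE + SNA it was between 0.19 and 0.28, with an adjusted P between 0.0528 and 0.171, without SH Sham replicate 1, 2 or 3 or EE + SNA replicate 1 or 2.

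Cebpd, a bZIP factor of inflammatory and injury responses, is a single-exon gene on the plus strand of chromosome 16 (15887286 to 15891031), with 562 exon bases shared with Spidr on the other strand. It had 17.7, 20.7 and 12.2 CPM in SH Sham and 20.3, 18.4 and 18.1 in SH SNA. In EE Sham it had 11.8, 15 and 18.8 CPM, and in EE + SNA 19.3, 21.3 and 23.1. The Sham samples spread widely, and the EE + SNA samples overlapped SH Sham but were all above EE Sham. Neither comparison with SH Sham was called, at log2 fold changes of 0.17 (95% interval −0.17 to 0.52, adjusted P = 0.541) and 0.33 (0.0044 to 0.67, adjusted P = 0.178). Without the filter on low counts, the second was called (0.32, adjusted P = 0.0255).

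**Figure D2:**
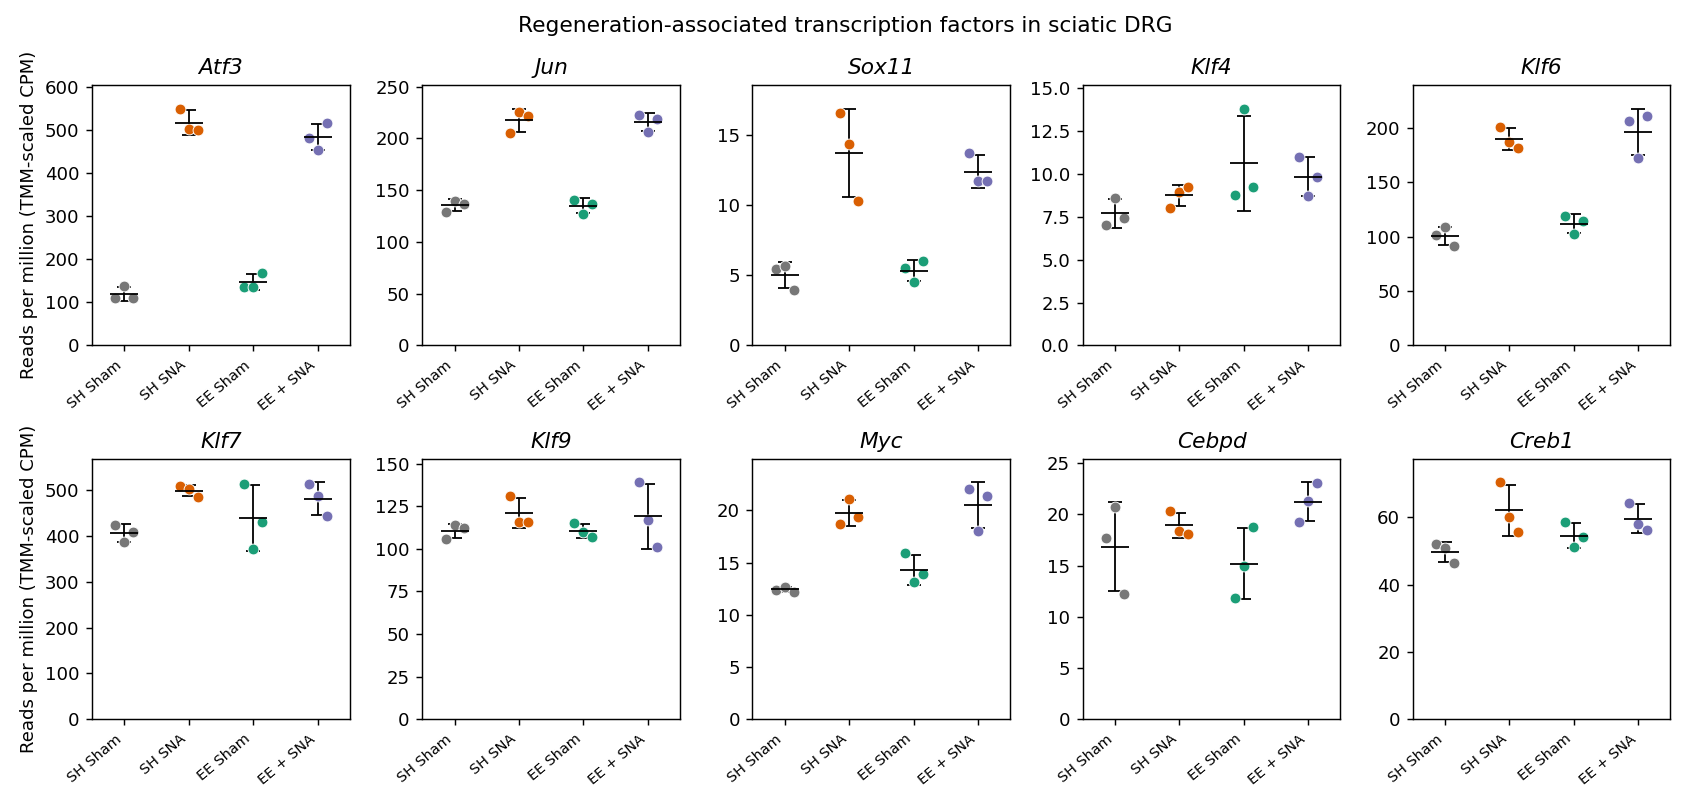
TMM-scaled CPM (linear axis from 0) of the 10 factors in the 4 groups, 1 panel per gene; points are the 3 samples, the horizontal bar is the mean and the whiskers are the SD. For Atf3, Jun, Sox11, Klf6 and Myc all SNA samples lie above all Sham samples of both housings, while SNA and Sham samples overlap for Klf4, Klf7, Klf9, Cebpd and Creb1.

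Sox11, a factor of differentiating neurons that is re-expressed after nerve injury, lies in 1 exon on the minus strand of chromosome 12 (27334264 to 27342574). It had few reads, 59 to 93 per sample in SH Sham, at 5.46, 5.67 and 3.94 CPM, and it had 16.5, 14.3 and 10.3 CPM in SH SNA. EE Sham had 5.5, 4.48 and 6.01 CPM, and EE + SNA had 13.7, 11.7 and 11.7. All 6 injured samples were above all 6 Sham samples, and SH SNA varied most. Sox11 was 2.73-fold higher in SH SNA (95% interval 2.06 to 3.61, adjusted P = 0.000352) and 2.44-fold higher in EE + SNA (1.95 to 3.07, adjusted P = 0.000202), the largest fold change of the 10 after that of Atf3.

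Among the Krüppel-like factors, Klf6 rose most. It lies on the plus strand of chromosome 13 (5861482 to 5870394, 5 exon blocks) and had 101, 109 and 91.6 CPM in SH Sham and 201, 187 and 181 in SH SNA. In EE Sham it had 119, 102 and 114 CPM, and in EE + SNA 206, 172 and 211. The lowest injured sample was well above the highest Sham sample. Klf6 was 1.89-fold higher in SH SNA (1.7 to 2.1, adjusted P = 7.45e-06) and 1.94-fold higher in EE + SNA (1.71 to 2.22, adjusted P = 3.43e-05).

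Klf7, which with Klf6 is on the growth-promoting side of the family, lies on the minus strand of chromosome 1 (64029447 to 64122282, 5 exon blocks), and 3196 of its exon bases are shared with Gm26649 on the other strand. Its CPM were 424, 386 and 409 in SH Sham and 510, 503 and 485 in SH SNA. They were 514, 371 and 431 in EE Sham and 514, 487 and 443 in EE + SNA, so that the SNA samples were above SH Sham but overlapped EE Sham, whose replicate 1 was among the highest. The log2 fold change was 0.30 (standard error 0.056, adjusted P = 0.00415) in SH SNA and 0.24 (0.067, adjusted P = 0.0334) in EE + SNA. The second of these was lost without any 1 of SH Sham replicates 1, 2 and 3 and EE + SNA replicates 1 and 2 (adjusted P from 0.0532 to 0.163) and with all 12 samples in one fit (0.0925).

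Klf4 and Klf9, on the growth-restraining side of the family, were not called. Klf4 (chromosome 4, 55527143 to 55532466, minus strand, 5 exon blocks) had 7.04, 8.61 and 7.42 CPM in SH Sham, 8.03, 8.96 and 9.23 in SH SNA, 8.75, 13.8 and 9.26 in EE Sham and 11, 8.7 and 9.83 in EE + SNA. The single highest sample was thus a Sham one, EE Sham replicate 2. Its log2 fold change was 0.19 (95% interval −0.083 to 0.46, adjusted P = 0.387) in SH SNA and 0.35 (0.051 to 0.64, adjusted P = 0.12) in EE + SNA. Klf9 (chromosome 19, 23141226 to 23168134, plus strand, 3 exon blocks) had 106, 114 and 112 CPM in SH Sham, 131, 116 and 116 in SH SNA, 115, 110 and 107 in EE Sham and 139, 117 and 101 in EE + SNA. EE + SNA spanned the whole range of the other groups. The log2 fold change of Klf9 was 0.14 (0.0027 to 0.27, adjusted P = 0.19) and 0.10 (−0.10 to 0.31, adjusted P = 0.532). The highest of these upper bounds, 0.64, was below the lower bounds of Klf6, 0.76 in SH SNA and 0.77 in EE + SNA.

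Myc, on the plus strand of chromosome 15 (61985391 to 61990374, 4 exon blocks), had 12.4, 12.7 and 12.2 CPM in SH Sham and 18.7, 21.1 and 19.4 in SH SNA. In EE Sham it had 15.9, 13.1 and 13.9 CPM, and in EE + SNA 22.1, 18 and 21.4. The SH Sham samples lay close together, EE Sham was above all of them, and every injured sample was above every Sham sample. Myc was 1.59-fold higher in SH SNA (1.38 to 1.83, adjusted P = 0.000679) and 1.63-fold higher in EE + SNA (1.4 to 1.9, adjusted P = 0.00092).

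**Figure D3:**
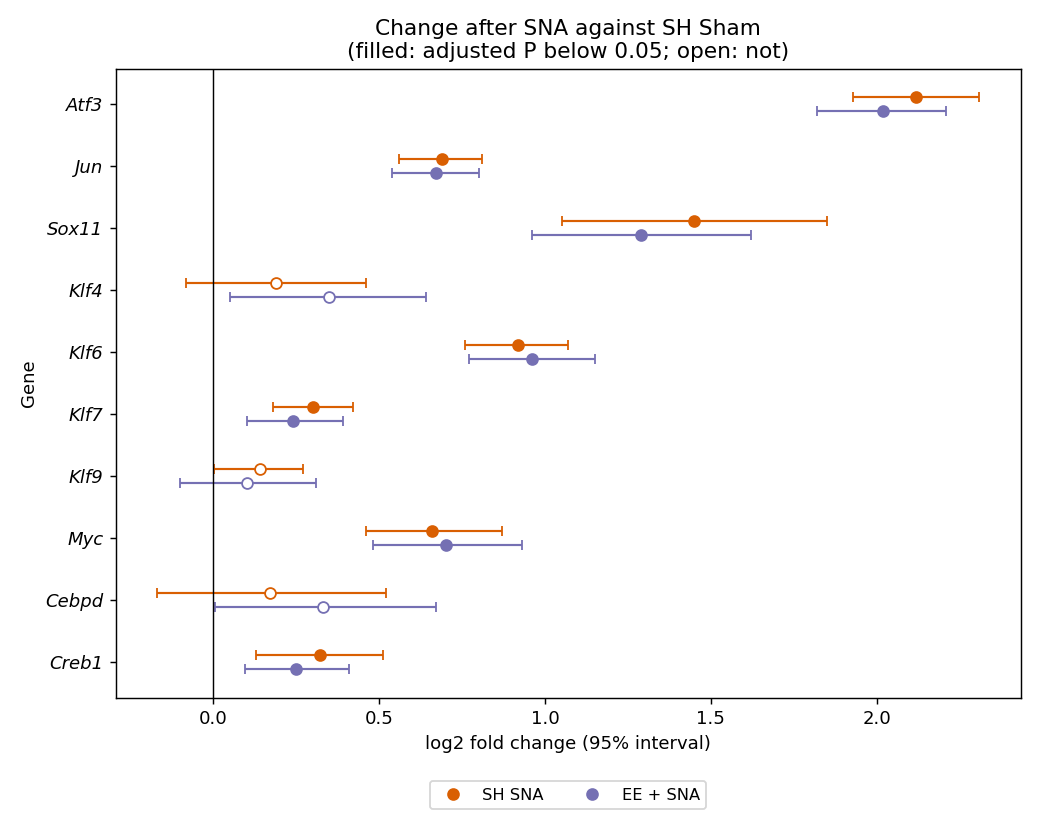
Log2 fold change against SH Sham with its 95% interval for SH SNA and EE + SNA; filled points have an adjusted P below 0.05 and open points do not. Atf3 is near 2 in both, followed by Sox11 and Klf6, and the intervals of the 2 groups overlap for every gene.

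The injury effect was also measured within EE and over both housings. Of the 10 factors, 5 were higher in EE + SNA than in EE Sham (2.51% of all genes were called higher), namely Atf3, Jun, Sox11, Klf6 and Myc. Atf3 was 3.28-fold higher (2.86 to 3.75, adjusted P = 4.24e-06), Sox11 2.3-fold (1.85 to 2.86, adjusted P = 0.000791) and Klf6 1.75-fold (1.53 to 1.99, adjusted P = 0.000427). Jun was 1.59-fold higher (adjusted P = 0.000229) and Myc 1.42-fold (adjusted P = 0.0255), and the call for Myc was lost without EE Sham replicate 2 or 3 or EE + SNA replicate 1 or 3 (adjusted P from 0.0582 to 0.111). Klf7 and Creb1, which were called against SH Sham, had log2 fold changes of 0.13 (−0.092 to 0.35) and 0.12 (−0.049 to 0.29) here. Cebpd, at a log2 fold change of 0.47 (0.16 to 0.79), had an adjusted P of 0.0867 and was called with the replicate block (adjusted P = 0.0364).

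Averaged over both housings in a fit of all 12 samples, 7 of 10 factors were higher after SNA, against 10.8% of all genes. The 7 were those called against SH Sham in both injured groups. For 5 of 10 (Atf3, Jun, Sox11, Klf6 and Myc) all 6 SNA samples were above all 6 Sham samples, which held for 5.47% of all genes. The log2 fold changes were 1.92 for Atf3 (standard error 0.069), 1.33 for Sox11 (0.13), 0.86 for Klf6 (0.061), 0.68 for Jun (0.044), 0.59 for Myc (0.073), 0.22 for Klf7 (0.064) and 0.22 for Creb1 (0.061). Those of Cebpd (0.33, standard error 0.12, adjusted P = 0.0601), Klf9 (0.12, 0.063, adjusted P = 0.192) and Klf4 (0.03, 0.11, adjusted P = 0.884) were not called.

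To ask what EE alone does to the factors, EE Sham and SH Sham were compared. With edgeR 0 of 10 were called after adjustment (0.00616% of all genes, a single gene), as with the likelihood ratio test and DESeq2. At an unadjusted P of 0.05 there were 2 of 10, against 2.97% of all genes. These were Klf4, 1.39-fold higher (1.08 to 1.8, unadjusted P = 0.015, adjusted P = 1) with 3 of 3 EE Sham samples above SH Sham, and Atf3, 1.23-fold higher (1.06 to 1.43, unadjusted P = 0.011, adjusted P = 1) with samples that overlapped. Neither passes the correction, and both also fall short of the unadjusted threshold without SH Sham replicate 1. Jun and Klf9 had ratios of 0.996 (0.899 to 1.1) and 0.999 (0.905 to 1.1), narrow intervals on either side of 1.

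To ask whether EE changes the response to SNA, EE + SNA was compared with SH SNA. By edgeR 0 of 10 factors were called (0% of all genes), and 0 of 10 at an unadjusted P of 0.05 (4.1% of all genes). DESeq2 and the likelihood ratio test also called 0 of the 10, with 2 and 0 of all genes. Atf3 was 0.935-fold of its level in SH SNA (0.847 to 1.03), Jun 0.994-fold (0.909 to 1.09), Klf6 1.03-fold (0.917 to 1.16), Klf7 0.964-fold (0.875 to 1.06) and Klf9 0.979-fold (0.842 to 1.14). The widest intervals were those of Sox11, at 0.898-fold (0.708 to 1.14), and Klf4, at 1.12-fold (0.921 to 1.36), and Cebpd was at 1.12-fold (0.97 to 1.29). Samples of EE + SNA and SH SNA overlapped for each of the 10 genes.

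The interaction, the effect of SNA after EE minus its effect after SH, was called for 0 of 10 factors after adjustment (0% of all genes, edgeR), and for 1 of 10 at an unadjusted P of 0.05 (2.61% of all genes). That gene was Atf3, with a log2 difference of −0.40 (95% interval −0.68 to −0.11, unadjusted P = 0.00916, adjusted P = 1). Its 2 parts were the level in EE Sham, 147 CPM against 119 in SH Sham, and the level in EE + SNA, 483 CPM against 516 in SH SNA. The likelihood ratio test and DESeq2 called 0 of the 10 after adjustment, and 1 of all genes each. Without the filter on low counts Atf3 was called, with an adjusted P of 0.0391. For the other 9 genes the interaction lay between −0.31 (Klf4, −0.79 to 0.17) and 0.31 (Cebpd, −0.19 to 0.81). Housing averaged over surgery was called for 0 of 10 (0% of all genes, edgeR) and for 1 of 10 at an unadjusted P of 0.05 (4.54% of all genes), Klf4, at 1.25-fold (1.06 to 1.47, unadjusted P = 0.0126, adjusted P = 1). Here too the likelihood ratio test and DESeq2 called 0 of the 10, and 3 and 5 of all genes.

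**Figure D4:**
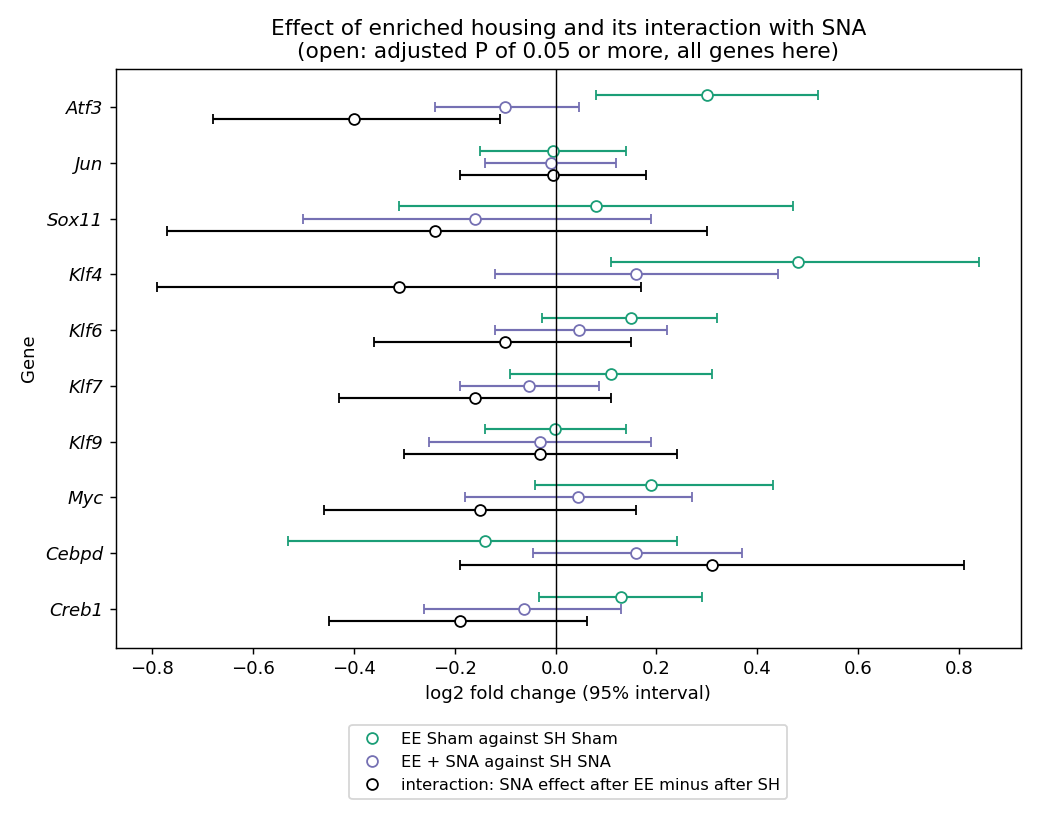
Log2 fold change with its 95% interval for the effect of EE in Sham mice, its effect in SNA mice, and the interaction of housing and surgery (the SNA effect after EE minus that after SH). All points are open because no adjusted P is below 0.05; the intervals of Atf3 and Klf4 in EE Sham, and that of Atf3 in the interaction, lie off 0.

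The factors were next set beside the other genes of their families, from lists that hold each family as a whole. Over all 16238 genes tested, 6.06% were called higher in SH SNA and 6.87% in EE + SNA, and 839 and 915 genes were called lower. Of the AP-1 family, 15 genes other than Jun were tested, and 2 were higher and 1 lower in SH SNA, with 2 higher and 0 lower in EE + SNA. Mafk, a small MAF protein that dimerizes with other bZIP factors, was higher in both, at log2 fold changes of 0.57 and 0.74 (adjusted P = 0.00259 and 0.000349). Fosl2 was higher in SH SNA (0.36, adjusted P = 0.0222) and had 0.20 in EE + SNA (adjusted P = 0.138). Maff was higher in EE + SNA (0.48, adjusted P = 0.0375) and had 0.26 in SH SNA (adjusted P = 0.238). Mafa was lower in SH SNA (−1.25, adjusted P = 0.00878) and had −0.75 in EE + SNA (adjusted P = 0.052). Junb, another JUN protein, had 0.0025 (adjusted P = 0.994) and 0.17 (adjusted P = 0.387). Jund, Fos, Fosl1, Batf2, Batf3, Jdp2, Maf and Mafg, each at a mean of at least 1 CPM, were not called in either comparison.

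Of 13 ATF/CREB genes other than Atf3 and Creb1, 2 were higher in each comparison and 0 lower. They were Atf4, the translation-controlled factor of the integrated stress response (0.32 and 0.42, adjusted P = 0.00264 and 0.00567), and Crem, which encodes CREB-related activators and repressors (0.63 and 0.66, adjusted P = 0.00525 and 0.000859). Atf1, Atf2, Atf5, Atf6, Atf6b, Atf7, Creb3, Creb3l1, Creb3l2 and Creb5 were not called, with log2 fold changes from −0.21 to 0.2 in SH SNA and from −0.41 to 0.28 in EE + SNA. Of 4 C/EBP genes other than Cebpd, Ddit3 (CHOP) was higher in both (0.43 and 0.27, adjusted P = 0.00249 and 0.0256), and Cebpa, Cebpb and Cebpg were not called.

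Of 10 KLF genes other than the 4 described, Klf15 was higher in SH SNA (0.43, adjusted P = 0.0248) and none was called in EE + SNA. Klf15 had 0.30 there (adjusted P = 0.0913). Klf2, Klf3, Klf5, Klf8, Klf10, Klf11, Klf12, Klf13 and Klf16 had log2 fold changes from −0.066 to 0.32 in SH SNA. In the SOX family, 12 genes other than Sox11 were tested. Sox9 was higher in SH SNA (1.13, adjusted P = 0.0187), from a mean of 1.41 CPM in SH Sham to 3.08. It had 0.80 in EE + SNA (adjusted P = 0.0709). Sox12 was lower in EE + SNA (−0.46, adjusted P = 0.011) and had −0.31 in SH SNA (adjusted P = 0.0656). Sox4, which with Sox11 and Sox12 forms the SoxC group, had −0.075 in EE + SNA and was not called, and neither were Sox2, Sox5, Sox6, Sox7, Sox8, Sox10, Sox13, Sox17 and Sox18. In the MYC/MAX network of 12 genes other than Myc, 0 were called in either comparison by edgeR. At an unadjusted P of 0.05 there were 2 and 3 of the 12, against 25.2% and 27.2% of all genes. Of the 12 genes, Mycn, Mycl1, Max, Mxd1, Mxi1, Mxd3, Mxd4, Mnt, Mlx, Mlxip and Mga had a mean of at least 1 CPM. Their log2 fold changes were from −0.44 to 0.25 in SH SNA and from −0.2 to 0.33 in EE + SNA.

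**Figure D5:**
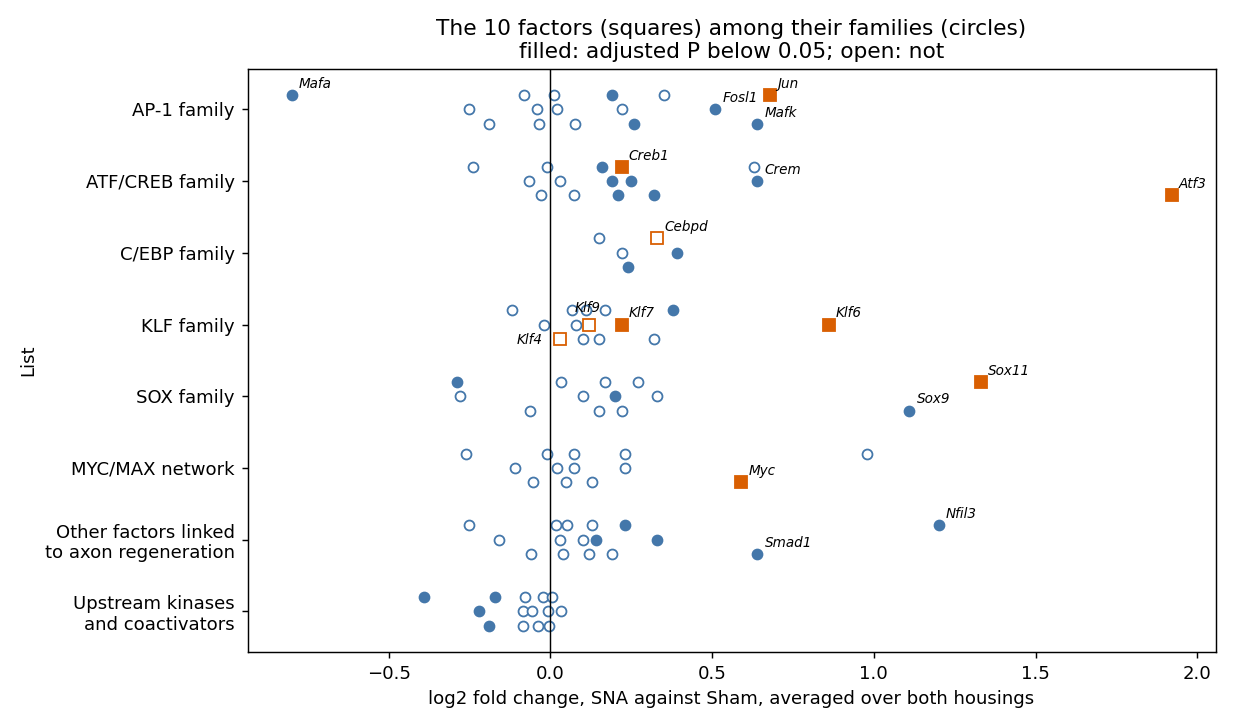
Log2 fold change of SNA against Sham, averaged over both housings in the fit of 12 samples, for the 10 factors (squares) and the other tested genes of their families and of 2 further lists (circles); filled symbols have an adjusted P below 0.05. Atf3 at 1.92 and Sox11 at 1.33 lie farthest to the right.

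Averaged over both housings, 10.8% of all 16238 genes tested were called higher, and 1676 genes were called lower. Of the family genes other than the 10 factors, 4 of 15 AP-1 genes were higher and 1 lower. Higher too were 6 of 13 ATF/CREB genes, 2 of 4 C/EBP genes, 1 of 10 KLF genes and 2 of 12 SOX genes (1 lower). In the MYC/MAX network 0 of 12 were called. In that fit Fosl1, a FOS relative, was called at 0.51 (adjusted P = 0.00823) and Jund at 0.19 (adjusted P = 0.0207). Of 16 other factors linked to axon regeneration, 4 were higher in SH SNA and 3 in EE + SNA, and 0 were lower. Nfil3, a bZIP repressor, had 1.30 and 1.21 (adjusted P = 2.95e-05 and 9.16e-05), Smad1, the mediator of BMP signals, 0.62 and 0.59 (adjusted P = 0.000152 and 0.000157), and Rela, a subunit of NF-κB, 0.27 and 0.37 (adjusted P = 0.0272 and 0.00532). Nfe2l2, the regulator of antioxidant genes, was called in SH SNA (0.20, adjusted P = 0.0395). Its mean CPM were 64.6 in SH Sham, 74 in SH SNA and 75.7 in EE + SNA.

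Of 14 upstream kinases and coactivators, 0 were called in SH SNA by edgeR. At an unadjusted P of 0.05 there were 5, all lower, against 25.2% of all genes in either direction. Against 915 of all 16238 genes tested, 3 of the 14 were lower in EE + SNA. These were Map3k13, the leucine zipper kinase of the JNK pathway (−0.42, adjusted P = 0.0223), Mapk10, which encodes the neuronal kinase JNK3 (−0.21, adjusted P = 0.0317), and Prkacb, a catalytic subunit of protein kinase A (−0.21, adjusted P = 0.0376). In SH Sham the mean CPM of Map3k13, Mapk10 and Prkacb were 15.8, 345 and 280, and in EE Sham 17.1, 342 and 287. In SH SNA they were 13.3, 305 and 243, near the 11.8, 298 and 242 of EE + SNA. Between EE + SNA and SH SNA 0 of the 14 were called (0% of all genes, edgeR). Averaged over both housings 4 of the 14 were lower, against 1676 of all 16238 genes tested. Genes known to rise in injured sensory neurons were counted last. Of 13 injury-induced effector genes tested, 12 were higher in SH SNA and 11 in EE + SNA, with medians of 1.38 and 1.22, and none was lower. Npy and Gal, which encode neuropeptides of injured neurons, had log2 fold changes of 3.05 and 1.27 in SH SNA and 2.59 and 0.88 in EE + SNA. Sprr1a, a protein of regrowing axons, had 2.01 and 1.53, and Gap43, the growth cone protein, 0.37 and 0.24, all called. Adcyap1, Nts, Hspb1, Gadd45a, Flrt3, Stmn4 and Tubb6 were higher in both as well.

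The genes whose pattern was most like that of Atf3 were sought by the root mean square difference of log2 CPM, each gene centred on its mean over the 12 samples, among 15334 genes with a mean of at least 1 CPM. The nearest were Flrt3 (0.13), Gadd45a (0.16), Procr (0.17), Sema6a (0.21) and E230016M11Rik (0.23). Flrt3, for example, had mean CPM of 40.4 in SH Sham, 155 in SH SNA, 49.7 in EE Sham and 152 in EE + SNA. Of the other 9 factors Sox11 was the nearest to Atf3 (0.36) and Klf4 the farthest (0.96). The genes nearest to Jun were Gm11549 (0.045), Fam214b (0.069), Tmem43 (0.07), Smad1 (0.072) and Acvr1 (0.081). Of the factors Myc (0.11) and Klf6 (0.14) were nearest to Jun, and Atf3 (0.64) was the farthest. These distances describe the 12 samples and were not tested.

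Markers of several cell types of the ganglion differed between the SNA groups and SH Sham. Those called of sensory neurons were lower and those called of the other types higher. Calls of markers here and below are against SH Sham unless another comparison is named. The sum of 12 sensory neuron markers was 19888 to 21571 CPM in SH Sham and 18657 to 19578 in EE Sham. It was 17869 to 19216 in SH SNA and 17605 to 18543 in EE + SNA, and 3 of 12 were lower in SH SNA and 6 of 12 in EE + SNA. Of all 16238 genes tested, 839 and 915 were lower in these groups, and 6.06% and 6.87% were higher. The 10 macrophage markers summed to 137 to 147 CPM in SH Sham, 127 to 160 in EE Sham, 156 to 209 in SH SNA and 170 to 273 in EE + SNA, with 3 and 4 of 10 higher. The 6 markers of myelinating Schwann cells summed to 6724 to 8195, 5921 to 8382, 7165 to 10640 and 8688 to 11474 CPM in the same order (0 and 3 of 6 higher), and the 6 of fibroblasts to 674 to 769, 655 to 766, 668 to 926 and 820 to 1036 (0 and 2 of 6 higher). Satellite glia had 2 and 1 of 7 markers higher, at sums of 2601 to 3460 CPM over all groups, and endothelium 0 and 1 of 6, at 91 to 129. Fewer were called in EE + SNA against EE Sham, where 378 of all genes were lower and 2.51% higher. There 1 of 12 sensory neuron markers was lower. Higher were 1 of 10 macrophage, 0 of 6 Schwann cell, 1 of 6 fibroblast, 1 of 7 satellite glia and 0 of 6 endothelium markers. Averaged over both housings, 7 of 12 sensory neuron markers were lower and 6 of 10 macrophage markers higher.

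Neutrophil markers summed to 57.9 to 150 CPM in SH Sham, 77.8 to 180 in EE Sham, 98.3 to 253 in SH SNA and 126 to 594 in EE + SNA, where 1 of 6 tested was higher. Their highest value was that of EE + SNA replicate 3. For the 3 red blood cell markers that were found, the sums were 114 to 184 CPM in SH Sham and 111 to 307 in EE Sham. In the SNA groups they were 175 to 595, with 2 and 3 of 3 higher against SH Sham. In EE + SNA against EE Sham, and averaged over both housings, 0 of 3 were called (2.51% and 10.8% of all genes were called higher). Of the 6 lymphocyte markers 3 were tested, 0 were called in either comparison, and the sums were 2.61 to 9.51 CPM. No marker of these lists was without a read in a whole group. The part of these cell types in the changes of the 10 factors was not tested.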

How the data were processed

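RNAseq counts of 12 samples (4 groups of 3, grouped by the labels' treatment and numbered by their titles) were used. The authors prepared TruSeq mRNA libraries, sequenced paired ends on an Illumina HiSeq and, per the submitters' processing notes, used TopHat2 2.0.12 and Bowtie2 2.2.3 (mm10), HTSeq 0.6.0 and edgeR 3.8.6. The deposited counts are whole reads per gene name, not normalized. The deposited FPKM, computed by the authors from those counts, were used for levels per length and for limma. The strand setting of the counting is not given in the sources used here.

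In R 4.3.3 with edgeR 4.0.16, counts were scaled by TMM (factors 0.978 to 1.017), filtered with filterByExpr (10 counts, total of 15, 4 groups) and tested by glmQLFit and glmQLFTest, two-sided. Comparisons of 2 groups used their 6 samples, and the interaction and averages all 12. P-values were adjusted (Benjamini-Hochberg) over the 16238 genes tested. Standard errors and 95% intervals were taken from the F statistic. Tested on simulated counts for SH SNA against SH Sham with 200 changed genes, the fit gave the right sign to 200 and called 181.

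The 10 factors, the gene and marker lists, the motifs and the comparisons were chosen with earlier results of these data known. The text names all 10 factors, listed genes called in both SH SNA and EE + SNA, and family genes with a mean of at least 1 CPM. A gene that this rule names is not reported here. A few further listed genes with 1 call were named after their values were seen. Mycl and Adgre1 were found in the table as Mycl1 and Emr1. Hbb-bs and Hbb-bt were not used here.

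The numbers of the replicates were taken to pair SH Sham with EE Sham, where samples of the same number deviated together from their group means (r of 0.331, 0.137 and 0.111). The pairing comes from these correlations alone, and they do not establish it. Samples of unlike number, SH Sham replicate 3 and EE Sham replicate 2, had r of 0.194, above 0.137 and 0.111. The main fits did not use the pairing. In each other comparison at least 1 pair had r below 0.1.

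The alternatives were edgeR's likelihood ratio test, DESeq2 1.42.0, scaling by library size only, no filter, at least 10 counts in every sample, limma 3.58.1 on log2(FPKM + 1) or log2(FPKM + 0.1), a fit of all 12 samples, replicate number as block, and each sample left out in turn. Positions are from GENCODE M21 (GRCm38) and promoters from RefSeq (GRCm38.p6). Python 3.11.15, pandas 2.3.3 and Matplotlib 3.10.9 were used for tables and figures.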

Additional observations from a re-analysis of the deposited data

Results flagged for a closer look

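The effect of SNA on Atf3 was smaller after EE than after SH. The log2 fold change was 1.71 in EE + SNA against EE Sham and 2.12 in SH SNA against SH Sham, and the interaction term was −0.40 (edgeR, unadjusted P = 0.00916, adjusted P = 1). It was noted because the unadjusted test of the difference passed 0.05, which 1 of 10 factors and 2.61% of all genes did, and it does not hold after adjustment. The interaction term lay between −0.51 and −0.29 with each sample left out in turn. It uses the EE Sham libraries, so a batch of these libraries, if there was one, cannot be told apart from it.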

How the results depend on the processing

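Of 1350 values of the 10 factors under alternatives, 1306 kept their side of the adjusted threshold, 30 lost a call, 14 gained one and 0 called values reversed. Among the 1306, 60 changed sign where neither value passed the unadjusted threshold. Atf3, Jun, Sox11 and Klf6 were called under all 15 alternatives in SH SNA and in EE + SNA, against SH Sham and (EE + SNA) against EE Sham, and Myc in both against SH Sham. Without the filter, 1 of 10 factors was called for the interaction, Atf3 (adjusted P = 0.0391), against 0 otherwise. With 1 sample left out, the number of factors called was 6 to 7 in SH SNA, 5 to 7 in EE + SNA, 4 to 5 in EE + SNA against EE Sham, 6 to 8 for surgery averaged over housing and 0 in the others. Creb1 lost its call under 6 of 15 alternatives in SH SNA and 8 of 15 in EE + SNA, and Klf7 under 8 of 15 in EE + SNA, limma on FPKM among them. Averaged over housing, Klf7 was lost without SH Sham replicate 2, SH SNA replicate 1, EE Sham replicate 3 or EE + SNA replicate 1 (adjusted P from 0.0538 to 0.0635), Cebpd was gained under 6 of 20 alternatives (0.000842 to 0.0484) and Klf9 without EE + SNA replicate 3 (0.0384). In EE + SNA against SH Sham, Cebpd was gained without the filter (0.0255). Against EE Sham, it was gained under 5 of 15 (0.00203 to 0.0472). The cause was not tested.

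The replicate block changed the call of Cebpd in EE + SNA against EE Sham (6 factors called against 5) and no other call. In EE Sham, the comparison in which the numbers were taken to pair the samples, it gave 0 factors called and 29 of all genes against 1. At an unadjusted P of 0.05 it gave 3 factors against 2 and 847 of all genes against 483. Over all genes, the counts called moved by more than 1.5 times in EE + SNA against EE Sham (785, and 1303 with the likelihood ratio test, 1720 without the filter, 1278 with all 12 samples in one fit, 469 and 472 with limma, 361 to 497 without EE Sham replicate 1 or 3 or EE + SNA replicate 1 or 3) and in EE Sham (0 to 48). They did so too in SH SNA without SH SNA replicate 1 (1207 against 1823), and in EE + SNA without SH Sham replicate 1 (1219), SH Sham replicate 3 (1275) or EE + SNA replicate 1 (1168), against 2031. Without the filter 18 genes were called in EE + SNA against SH SNA, 77 for the interaction and 128 for housing. Sox11 and Klf4, with 59 to 268 reads per sample, have the widest counting error.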
